A study of Solanum lycopersicum with 6 samples.

Results

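Genes of glycolysis, including glyceraldehyde-3-phosphate dehydrogenase (GAPDH), were examined in RNA-seq data from tomato fruit. A gene was taken as a member when its description in the deposited table named phosphofructokinase, fructose-bisphosphate aldolase, triose-phosphate isomerase, GAPDH, phosphoglycerate kinase or mutase, enolase, pyruvate kinase, glucose-6-phosphate isomerase or pyruvate decarboxylase. This gave 81 genes of the 40229 in the table. The description was that of the enzyme itself for 66 of them. The other 15 only share its name, as mutase-like or mutase family proteins, an enolase-phosphatase or a protein with a domain of unknown function, and they are described apart. The fruits were of the dwarf cultivar Micro-Tom at 25 days after anthesis, with 3 libraries from wild type and 3 from a line labelled SlLBD40-KO, in which the LATERAL ORGAN BOUNDARIES domain transcription factor gene SlLBD40 was mutated. The labels describe neither the edited allele nor how many independent lines were used, and they do not say which parts of the fruit were taken or whether replicates came from separate plants. P-values therefore measure the spread between these libraries. Libraries are named by genotype and column number in the table.

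Glycolysis splits hexose phosphates into trioses and oxidizes these to pyruvate, giving ATP, NADH and carbon skeletons. In plants a cytosolic and a plastid set of these enzymes are encoded by separate nuclear genes. The plastid forms of aldolase, triose-phosphate isomerase, GAPDH and phosphoglycerate kinase also serve the Calvin cycle in green tissue, and green tomato fruit holds chloroplasts. Pyruvate decarboxylase leads from pyruvate to acetaldehyde and, through alcohol dehydrogenase, to ethanol. GAPDH transcripts are often used as a reference in quantitative PCR. In the table, 0 of the 81 descriptions named a compartment, and 0 of the 81 identifiers matched the reference gene table. Plastid and cytosolic forms could therefore not be told apart from the sources used here, and no compartment was given to any member.

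The table names no unit. Its values were taken as TPM, transcript abundances scaled for transcript length and library total, because each library sums to just under 1e+06, so levels can be compared between genes. Where 3 values of a genotype are given, they are those of libraries 1, 2 and 3 in that order. Each library held 17352 to 18693 genes at 1 TPM or above. Where the labels name a sequencing lane, it differs between wild type and knockout, and sample titles of the 2 genotypes begin differently, so a lane effect and a genotype effect cannot be told apart in any comparison here. Neither the labels nor the table tie SlLBD40 to an identifier, so the mutated gene could not be used to check the labels. Of 6 fruit marker genes, Tomato AGAMOUS-like 1 (Solyc07g055920) lay between 164 and 241 TPM, and FRUITFULL-like MADS-box 1 (Solyc06g069430) between 230.5 and 872 TPM. Markers of ripening varied more and were highest in knockout 3, from 1.53 to 113 TPM for ripening inhibitor (Solyc05g012020), 76.1 to 643 TPM for phytoene synthase 1 (Solyc03g031860), 0.04 to 367 TPM for a polygalacturonase (Solyc10g080210) and 449 to 6454 TPM for the oxygenase gene Solyc09g089580. Transcripts of 42 seed storage and oleosin genes summed to 4657, 75.01 and 62.6 TPM for wild type, and 4699, 168 and 431 TPM for knockout, so wild type 1 and knockout 1 stood apart as rich in seed transcripts. Of the 431 TPM in knockout 3, a single oleosin gene, Solyc06g060840, made up 370 TPM. Between 17 and 24 of these 42 genes were listed at 0 in a library. Transcripts of 37 chlorophyll a-b binding protein genes summed to 2948, 596 and 805 TPM for wild type, and 1169.6, 1205 and 2218 TPM for knockout. Differing shares of cells and differing RNA per cell cannot be told apart in such bulk samples.

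No glycolysis gene passed the adjusted test between the genotypes, although some differed by 2-fold or more. On the log2(TPM + 1) scale 9 of the 66 members tested stood at least 2-fold higher and 9 at least 2-fold lower in the knockout. Of all 18368 genes tested, 1048 and 1653 did. Of the 81 members, 66 reached 1 TPM in at least 3 libraries and were tested by limma on log2(TPM + 1), in a fit over all 18368 genes that passed this filter. At a Benjamini-Hochberg adjusted p under 0.05, limma called 0 members higher and 0 lower in the knockout, against 0.0436% and 0.049% of all genes. The smallest adjusted p of a member was 0.0963. Without adjustment, a limma p under 0.05 was reached by 9 members that stood higher and 13 that stood lower, where 6.24% of all genes were higher and 11.3% lower. Without wild type 1 and knockout 1, the libraries rich in seed transcripts, these counts were 10 and 5, and without wild type 1 alone or wild type 3 alone 8 stood lower. The share of all genes under this threshold, in either direction, fell as well. It was 17.5% with all libraries and 8.85% without both seed-rich ones, 13.7% without wild type 1 and 12.7% without wild type 3. The genotypes did not overlap for 9 members that stood higher and 14 that stood lower, against 8.26% and 16.1% of all genes. A mean above that of wild type was found for 31 of the 66 and a mean below it for 35, against 43.5% and 56.5% of all genes. The median log2 fold change of the members was −0.073, beside −0.087 for all genes tested. With median-ratio scaling of the libraries, which moved the median of all genes by 0.10, the same unadjusted limma threshold gave 14 members higher and 11 lower, beside 1701 and 1745 of all genes in place of 1146 and 2070. With that scaling 15 members stood higher and 9 lower without overlap, of which 18 were among the 23 counted without it. The share of all genes without overlap was not taken with that scaling, so these counts have no background beside them.

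**Figure D1:**
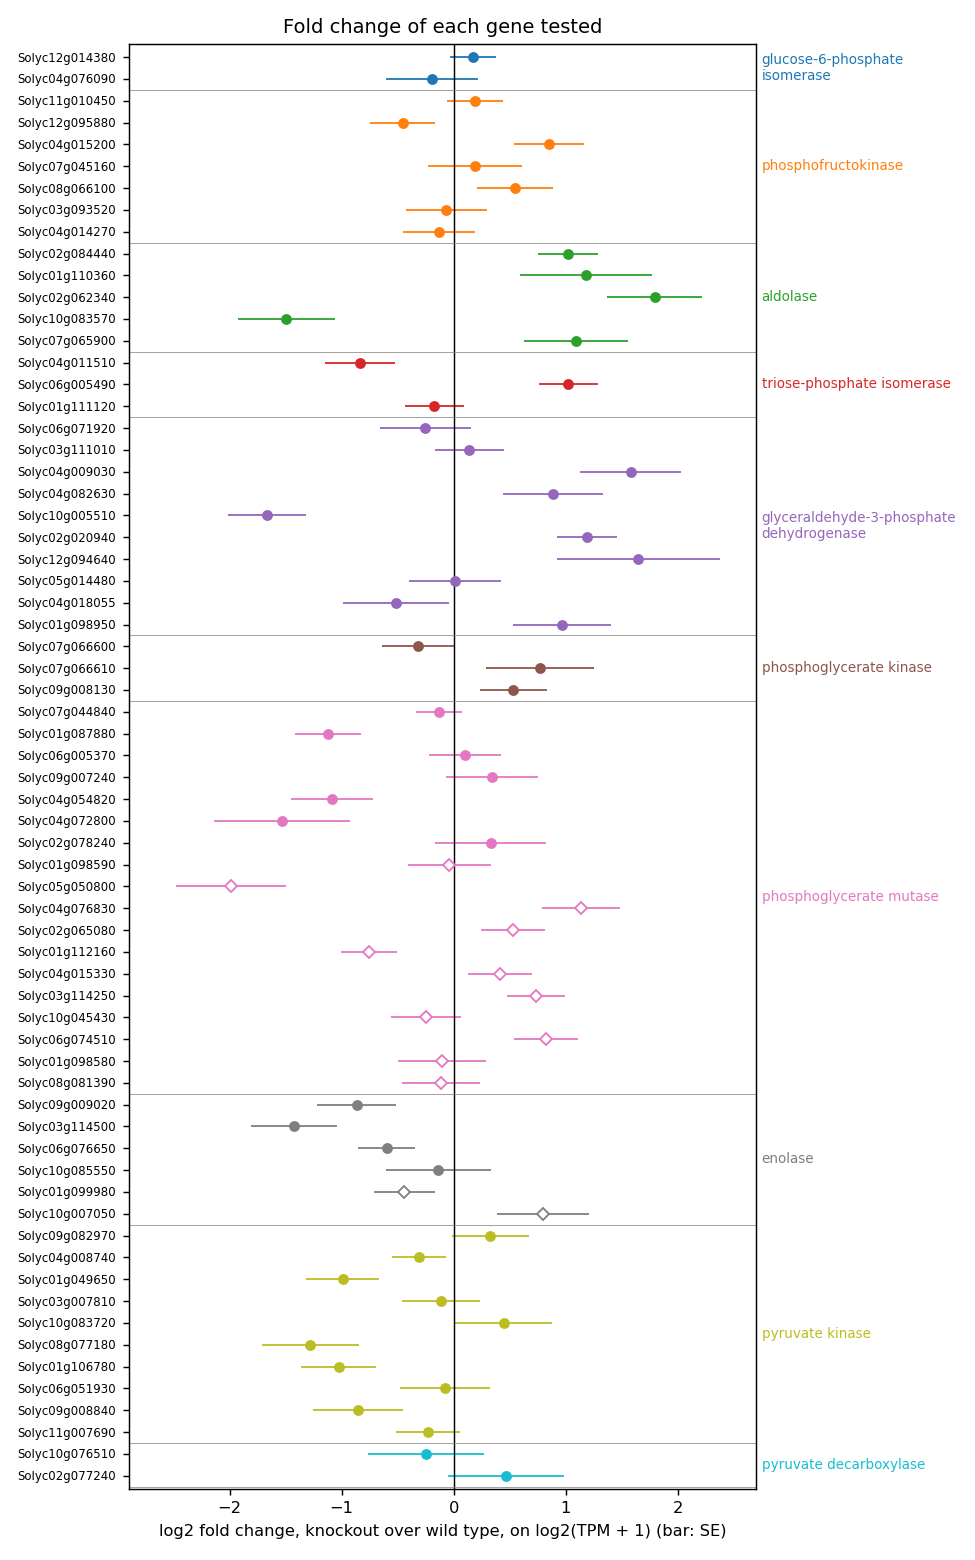
Log2 fold change of knockout over wild type on the log2(TPM + 1) scale, with its standard error, for the 66 genes tested, grouped by step from the top of the pathway to the bottom. Filled circles are genes described as the enzyme and open diamonds are genes that only share its name; values run from −1.99 to 1.79 and most steps hold genes on both sides of 0.

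The summed level of the 81 genes was 7772, 5079 and 6314 TPM for wild type, and 7369, 6970.2 and 7593 TPM for knockout. This was 0.511% to 0.781% of all TPM, with wild type 2 lowest and wild type 1 highest. Mean levels of single tested members over the 6 libraries ran from 1.18 to 1689 TPM, with 19 genes at 100 TPM or above. Summed by step, the genotypes stood apart for aldolase, which was higher in the knockout, and for phosphoglycerate mutase proper and enolase, which were lower. The other steps overlapped. With median-ratio scaling aldolase still stood apart, while mutase and enolase overlapped, knockout 3 then lying among or above the wild-type libraries. Wild type 2 held the lowest value of its genotype for 39 of the 66 tested members, against 19 for wild type 1 and 8 for wild type 3.

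**Figure D2:**
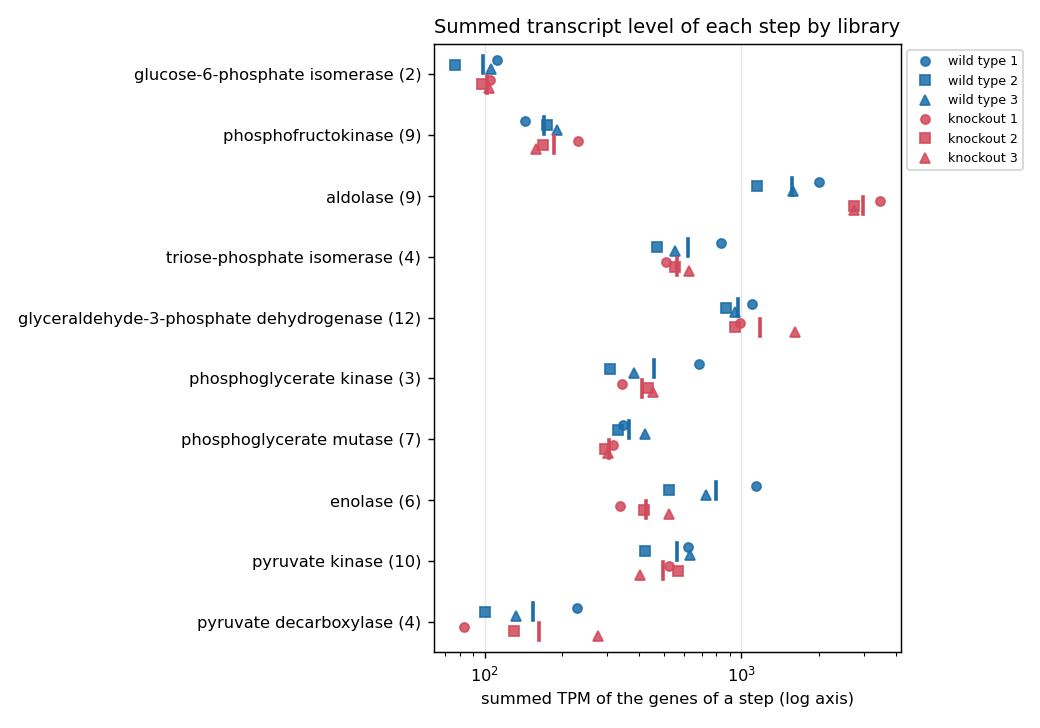
Summed TPM of the genes of each step on a log axis, 1 point per library and a vertical bar at each genotype's mean, with the number of genes in parentheses; mutase-like and enolase-like genes are left out. Aldolase lies higher in all 3 knockout libraries, enolase and phosphoglycerate mutase lie lower, and the other 7 steps overlap; with median-ratio scaling enolase and phosphoglycerate mutase overlap too.

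At the entry of the pathway the genotypes overlapped. Glucose-6-phosphate isomerase, which interconverts glucose and fructose 6-phosphate, was described for 2 genes, whose sum was 98.2 ± 18.7 TPM over the wild-type libraries, and 102 ± 3.67 TPM over the knockout libraries (SD, n = 3). The more abundant, Solyc12g014380, stood at 72.6, 62.4 and 74.2 TPM for wild type, against 85.3, 78.1 and 72.3 TPM for knockout. Its groups overlapped, and its highest library was only 1.37 times its lowest (log2 fold change 0.17, SE 0.20, 95% interval −0.31 to 0.65, limma adjusted p = 0.727). With median-ratio scaling it stood higher in the knockout without overlap. Solyc04g076090 stood at 39.2, 14.4 and 31.6 TPM for wild type, against 19.2, 19.7 and 31.5 TPM for knockout, also overlapping (log2 fold change −0.19, SE 0.41, limma adjusted p = 0.859).

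ATP-dependent phosphofructokinase, which commits fructose 6-phosphate to glycolysis, was described for 9 genes, of which 7 were tested and 2 were listed at 0 throughout. Their sum was 170.0 ± 24.4 TPM over the wild-type libraries, and 186 ± 39.8 TPM over the knockout libraries (SD, n = 3). The most abundant, Solyc11g010450, stood at 43.5, 51.8 and 49.2 TPM for wild type, against 72.3, 45.7 and 49.8 TPM for knockout, with overlapping groups (log2 fold change 0.19, SE 0.25, limma adjusted p = 0.758). Solyc04g015200 stood at 12.6, 17.4 and 14.3 TPM for wild type, against 40.1, 20.7 and 24.1 TPM for knockout. All 3 knockout libraries lay above wild type, with knockout 1 highest (log2 fold change 0.85, SE 0.31, limma adjusted p = 0.228). Its share of phosphofructokinase transcripts was 8.79%, 9.96% and 7.46% for wild type, and 17.3%, 12.3% and 15.2% for knockout. Solyc08g066100 stood at 21.7, 10.4 and 11.1 TPM for wild type, against 17.2, 21.5 and 22.7 TPM for knockout, where wild type 1 lay among the knockout libraries (log2 fold change 0.55, SE 0.34, limma adjusted p = 0.454). The other 4 tested genes had log2 fold changes between −0.46 and 0.19 and overlapping groups. Among them Solyc12g095880, chosen after its values were seen, had a share that did not overlap. It held 19.3%, 25.7% and 27.0% for wild type, and 14.1%, 15.4% and 18.3% for knockout.

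Aldolase, which splits fructose 1,6-bisphosphate into 2 trioses, was the most abundant step. In the knockout 4 of its 5 tested genes had a higher mean, where 43.5% of all genes did. Without overlap 2 of the 5 stood higher and 1 lower, against 8.26% and 16.1% of all genes. The 9 aldolase genes summed to 1997, 1153 and 1586 TPM for wild type, and 3452, 2743 and 2755 TPM for knockout, a mean 1.89 times that of wild type. Every knockout library exceeded every wild-type library. Most of this was Solyc02g084440, the most abundant member of all, at 1265, 942 and 1132 TPM for wild type, against 2685, 2217 and 1894 TPM for knockout. The groups were well apart, from 1113 ± 162 to 2265 ± 397 TPM (SD, n = 3; log2 fold change 1.02, SE 0.27, 95% interval 0.40 to 1.64, limma adjusted p = 0.132), but the difference did not pass the adjusted test. Over all alternative settings its log2 fold change lay between 0.89 and 1.14.

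Solyc02g062340 had the largest difference of the aldolase genes, at 64.4, 35.2 and 73.4 TPM for wild type, against 316, 193 and 119 TPM for knockout. Wild type 2 was lowest and knockout 1 highest, without overlap (log2 fold change 1.79, SE 0.43, 95% interval 0.79 to 2.80, limma adjusted p = 0.115). Solyc01g110360 stood at 393, 81.7 and 176 TPM for wild type, against 382, 268 and 651 TPM for knockout. Here wild type 1 exceeded knockout 1 and 2, and knockout 3 stood alone at the top (log2 fold change 1.18, SE 0.59, limma adjusted p = 0.356). The chlorophyll a-b binding transcripts given above were likewise highest in wild type 1 and knockout 3, and their part in this gene's values was not tested. Solyc07g065900 was low, at 3.33, 6.97 and 11.6 TPM for wild type, against 23.04, 11.5 and 12.9 TPM for knockout, with groups that just overlapped (log2 fold change 1.09, SE 0.46, limma adjusted p = 0.286), and did not with median-ratio scaling.

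A single aldolase gene went the other way. Solyc10g083570 stood at 271, 87.7 and 193 TPM for wild type, against 47.2, 53.7 and 78.1 TPM for knockout. Wild type 1 was highest and the groups did not overlap (log2 fold change −1.50, SE 0.43, 95% interval −2.52 to −0.48, limma adjusted p = 0.152). Its share of aldolase transcripts was 13.5%, 7.61% and 12.2% for wild type, and 1.37%, 1.96% and 2.84% for knockout, and every knockout library lay below every wild-type one. With median-ratio scaling its levels overlapped. Such shares are ratios within a library and do not change with the scaling of the libraries. Shares of genes in the same step depend on each other, since a larger share of any gene leaves less for the rest. For every other aldolase gene tested the shares overlapped, also for Solyc02g084440 and Solyc02g062340, whose levels did not. Shares were not taken over all genes, so those that stood apart have no background beside them. With 3 libraries a side, the smallest two-sided p of an exact permutation test on such a share is 0.1. Solyc10g083570, Solyc01g110360 and Solyc07g065900 were outside the rule for named genes and were chosen after their values were seen. The remaining 4 aldolase genes stayed below 1 TPM in all libraries, 2 of them at 0 throughout.

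Triose-phosphate isomerase, which interconverts the trioses made by aldolase, had overlapping totals, while the shares of its 2 most abundant genes stood apart between the genotypes. The sum of its 4 genes was 619 ± 192 TPM over the wild-type libraries, and 562 ± 60.5 TPM over the knockout libraries (SD, n = 3), with overlapping groups. Solyc04g011510 stood at 522, 264 and 329.5 TPM for wild type, against 172, 249 and 185 TPM for knockout. All wild-type libraries lay above the knockout, wild type 1 by far the highest and wild type 2 only just above knockout 2 (log2 fold change −0.84, SE 0.31, 95% interval −1.57 to −0.11, limma adjusted p = 0.230). Solyc06g005490 stood at 154, 115 and 101 TPM for wild type, against 236, 205 and 316 TPM for knockout. All knockout libraries lay above wild type, with knockout 3 highest (log2 fold change 1.03, SE 0.27, 95% interval 0.40 to 1.65, limma adjusted p = 0.132). Of all triose-phosphate isomerase transcripts, Solyc04g011510 held 62.5%, 55.99% and 59.8% for wild type, and 33.99%, 44.98% and 29.6% for knockout. Solyc06g005490 held 18.4%, 24.5% and 18.3% for wild type, and 46.7%, 37.1% and 50.4% for knockout. The shares of both genes did not overlap between genotypes, and Solyc06g005490 was the larger of the 2 in knockout 1 and 3 but in no other library. The third tested gene, Solyc01g111120, held 20.00% ± 1.57 on average over wild-type libraries and 19.02% ± 1.07 over knockout libraries (SD, n = 3). Solyc10g054870 reached 1 TPM in wild type 1 alone, at 3.05 TPM, and was not tested.

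GAPDH, which oxidizes glyceraldehyde 3-phosphate, was described for 12 genes. Its total overlapped between genotypes, while 2 of its genes stood higher and 1 lower in the knockout without overlap. Those are 2 and 1 of 10 tested genes, where 8.26% and 16.1% of all genes stood higher and lower without overlap. The sum was 1101, 871 and 947 TPM for wild type, and 988, 941 and 1623 TPM for knockout. Knockout 3 stood above the rest, as it did for the ripening markers, whose part in this sum was not tested. The 2 most abundant genes did not separate the genotypes. Solyc06g071920 stood at 409.5, 338 and 289 TPM for wild type, against 197, 220.2 and 540.1 TPM for knockout, with knockout 3 highest and knockout 1 lowest of all 6 (log2 fold change −0.25, SE 0.41, 95% interval −1.21 to 0.70, limma adjusted p = 0.805). Solyc03g111010 stood at 212, 300.2 and 285 TPM for wild type, against 223, 254 and 428 TPM for knockout, again with knockout 3 highest (log2 fold change 0.14, SE 0.31, 95% interval −0.58 to 0.86, limma adjusted p = 0.864). These intervals do not show that the genotypes were alike: they reach −1.21 and 0.86 on the log2 scale.

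Solyc10g005510 had the smallest adjusted p of all members. It stood at 86.8, 89.1 and 178 TPM for wild type, against 25.9, 43.3 and 35.97 TPM for knockout. Wild type 3 was highest, and every wild-type library lay above every knockout library (log2 fold change −1.67, SE 0.35, 95% interval −2.49 to −0.84, limma adjusted p = 0.0963). Its log2 fold change lay between −1.84 and −1.33 over all alternative settings. Of all GAPDH transcripts it held 7.89%, 10.2% and 18.7% for wild type, and 2.62%, 4.60% and 2.22% for knockout.

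Solyc04g009030 stood at 167, 50.4 and 73.1 TPM for wild type, against 263, 193 and 332 TPM for knockout. The groups did not overlap, although wild type 1 lay close to knockout 2 and far above wild type 2 and 3 (log2 fold change 1.58, SE 0.45, 95% interval 0.52 to 2.64, limma adjusted p = 0.150). Its share of GAPDH transcripts was 15.1%, 5.78% and 7.72% for wild type, and 26.6%, 20.5% and 20.5% for knockout. Solyc02g020940 stood at 37.3, 24.8 and 27.2 TPM for wild type, against 87.5, 62.4 and 57.98 TPM for knockout. Every knockout library lay above wild type (log2 fold change 1.19, SE 0.27, 95% interval 0.56 to 1.83, limma adjusted p = 0.106). Its share was 3.38%, 2.84% and 2.87% for wild type, and 8.85%, 6.63% and 3.57% for knockout. These again did not overlap, though knockout 3 lay only just above wild type 1. Solyc04g082630 stood at 158, 46.95 and 71.7 TPM for wild type, against 138, 124 and 200.1 TPM for knockout. Wild type 1 lay among the knockout libraries, and it was also the highest of all 6 in the sum of chlorophyll a-b binding transcripts (log2 fold change 0.89, SE 0.45, limma adjusted p = 0.361). The log2 fold change was 1.36 without wild type 1 and 0.50 without wild type 2. The part of green tissue in these 3 genes was not tested.

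The other tested GAPDH genes were low. Solyc12g094640 stood at 16.5, 1.26 and 8.29 TPM for wild type, against 24.9, 28.5 and 13.9 TPM for knockout. Its groups overlapped at wild type 1 and knockout 3, though not with median-ratio scaling, and its SE was the largest of all members (log2 fold change 1.65, SE 0.73, limma adjusted p = 0.303). The log2 fold change was 0.82 without wild type 2 and 2.29 without wild type 1. Solyc01g098950 stood at 1.52, 3.94 and 3.54 TPM for wild type, against 8.48, 3.50 and 8.91 TPM for knockout, with knockout 2 among wild type (log2 fold change 0.97, SE 0.44, limma adjusted p = 0.316). Solyc04g018055 stood at 6.09, 6.84 and 7.80 TPM for wild type, against 10.4, 3.27 and 2.44 TPM for knockout, with knockout 1 highest and knockout 3 lowest (log2 fold change −0.52, SE 0.48, limma adjusted p = 0.633). Solyc05g014480 stood at 6.64, 9.37 and 4.82 TPM for wild type, against 9.69, 8.38 and 3.73 TPM for knockout, where both groups spanned nearly the same range (log2 fold change 0.014, SE 0.41, limma adjusted p = 0.990). Solyc03g111000, numbered next to the abundant Solyc03g111010, and Solyc05g005820 stayed below 1 TPM in all libraries. How the authors' processing divided reads between close copies is not given in the sources used here, so levels of single genes in such families are uncertain.

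**Figure D3:**
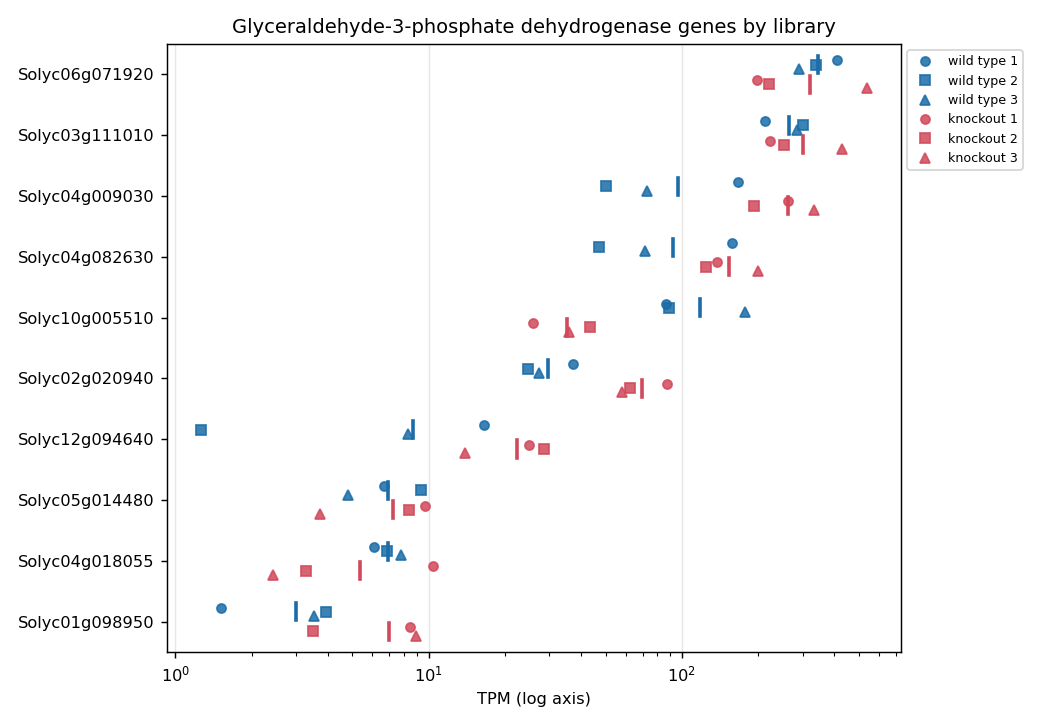
TPM of the 10 tested GAPDH genes on a log axis, ordered by mean level, with 1 point per library and a vertical bar at each genotype's mean. Solyc10g005510 lies lower and Solyc04g009030 and Solyc02g020940 lie higher in all 3 knockout libraries, while the other 7 overlap; with median-ratio scaling Solyc12g094640 lies higher without overlap as well.

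**Figure D4:**
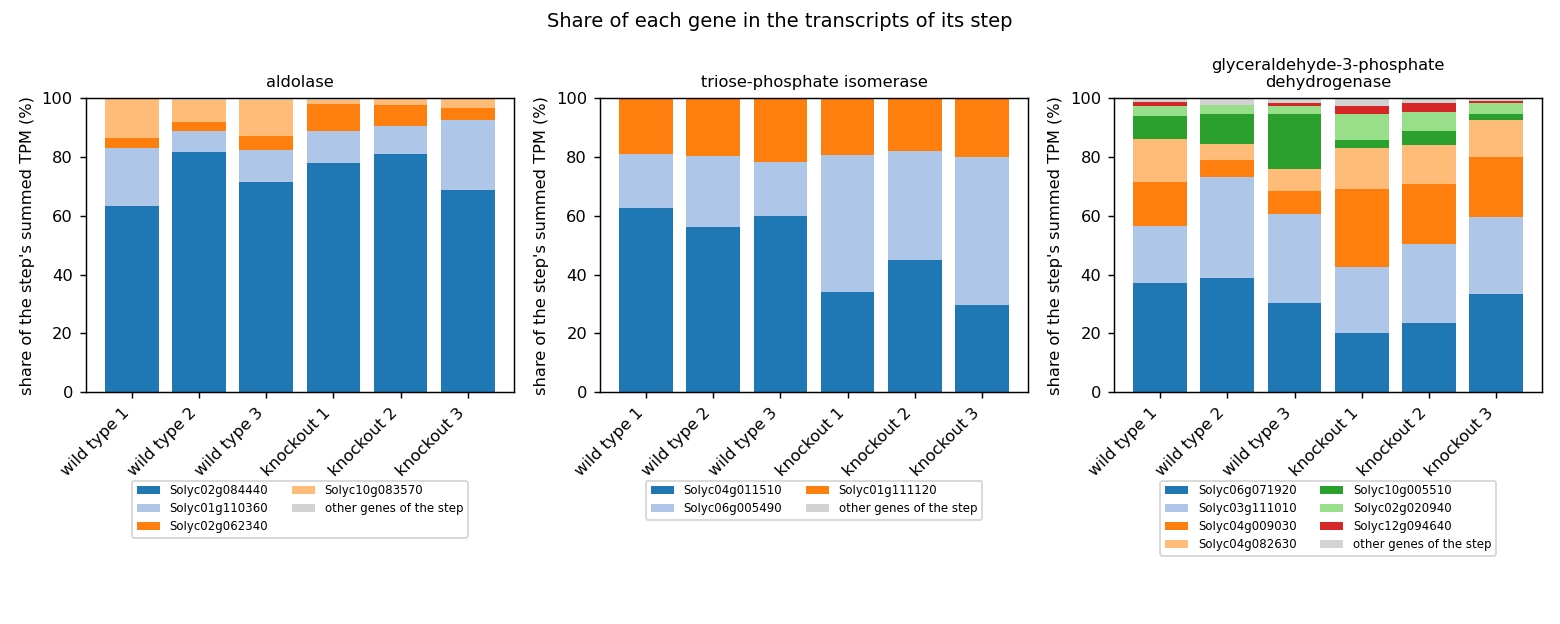
Share of each gene in the summed TPM of its step, in percent, by library, for aldolase, triose-phosphate isomerase and GAPDH; genes under 2% in both genotypes are joined as other genes. The share of Solyc06g005490 among triose-phosphate isomerase transcripts is 20.4% on average in wild type and 44.7% in the knockout.

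Phosphoglycerate kinase, the first ATP-forming step, was described for 3 genes, all tested, with overlapping groups for each. Solyc07g066600 stood at 551, 270.3 and 319 TPM for wild type, against 226, 334 and 325 TPM for knockout. Wild type 1 stood far above the other libraries (log2 fold change −0.32, SE 0.33, 95% interval −1.09 to 0.46, limma adjusted p = 0.680). Without wild type 1 and knockout 1, the libraries rich in seed transcripts, its log2 fold change was 0.17. Its neighbour in number, Solyc07g066610, stood at 126, 30.7 and 55.7 TPM for wild type, against 105, 88.7 and 119 TPM for knockout, with wild type 1 again highest (log2 fold change 0.77, SE 0.48, limma adjusted p = 0.460). Its log2 fold change was 0.30 without wild type 2 and 1.30 without wild type 1. The share of phosphoglycerate kinase transcripts held by Solyc07g066600 was 80.7%, 88.1% and 83.6% for wild type, and 65.9%, 77.4% and 72.1% for knockout. That share was lower in every knockout library than in any wild-type one. Solyc09g008130 was low, at 5.24, 5.92 and 7.01 TPM for wild type, against 11.9, 9.11 and 7.0 TPM for knockout (log2 fold change 0.53, SE 0.30, limma adjusted p = 0.415). With median-ratio scaling it stood higher in the knockout without overlap (limma adjusted p = 0.196).

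Phosphoglycerate mutase, which moves the phosphate from carbon 3 to carbon 2 of glycerate, was described as such for 7 genes, all tested. Their sum was 346, 332 and 421 TPM for wild type, and 316, 294 and 302 TPM for knockout, and the genotypes stood apart by a small margin. In plants the main glycolytic mutase is of the type independent of 2,3-bisphosphoglycerate. Solyc07g044840, one of 2 genes so described and the most abundant of the 7, stood at 250, 229 and 292 TPM for wild type, against 247, 219 and 233 TPM for knockout. Solyc07g044840 was the steadiest tested member, its highest library being 1.33 times its lowest, and its groups overlapped (log2 fold change −0.13, SE 0.21, 95% interval −0.62 to 0.35, limma adjusted p = 0.796). Solyc09g007240, with the same description and outside the rule for named genes, had a log2 fold change of 0.34 and Solyc06g005370, described as cofactor-independent and also outside it, one of 0.10, both overlapping. A gene described as the bisphosphoglycerate-dependent type, Solyc01g087880, stood at 39.5, 43.1 and 57.2 TPM for wild type, against 14.96, 21.3 and 27.2 TPM for knockout. All knockout libraries lay below wild type (log2 fold change −1.13, SE 0.29, 95% interval −1.82 to −0.43, limma adjusted p = 0.133). The other 2 genes described as the dependent type, chosen after their values were seen, were also lower without overlap. Of the 7 mutase genes, 3 were thus lower and 0 higher without overlap, against 16.1% and 8.26% of all genes. Solyc04g054820 stood at 14.7 ± 3.70 TPM over the wild-type libraries, and 6.58 ± 2.59 TPM over the knockout libraries (SD, n = 3; log2 fold change −1.09, SE 0.37, limma adjusted p = 0.197). Solyc04g072800 ranged from 3.43 to 24.1 TPM across wild-type libraries, and from 1.99 to 3.31 TPM across the knockout, so that its lowest wild-type and highest knockout libraries nearly met (log2 fold change −1.53, SE 0.61, limma adjusted p = 0.257), and overlapped with median-ratio scaling.

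A further 13 genes are described as mutase-like or as mutase family proteins, a family that also holds phosphatases with other substrates, and 11 were tested. Of these, 3 stood higher and 2 lower without overlap, beside the shares of all genes given above. Solyc05g050800 had the largest difference of all members on the log2(TPM + 1) scale. It stood at 275, 238 and 275 TPM for wild type, against 72.5, 129 and 29.4 TPM for knockout. The wild-type libraries lay close together and the knockout libraries were spread, with knockout 3 lowest (log2 fold change −1.99, SE 0.50, 95% interval −3.15 to −0.82, limma adjusted p = 0.122). In the other direction Solyc04g076830, chosen after its values were seen, stood at 23.6, 51.5 and 50.6 TPM for wild type, against 106, 72.9 and 88.7 TPM for knockout (log2 fold change 1.14, SE 0.35, limma adjusted p = 0.169). The abundant Solyc01g098590, also outside the rule, ranged from 158 to 237 TPM across wild-type libraries, and from 126 to 323 TPM across the knockout.

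Enolase, which makes phosphoenolpyruvate, had a lower mean in the knockout for all 4 genes tested under its own name, where 56.5% of all genes did. Of these 4 genes, 2 were lower without overlap, against 16.1% of all genes. The 6 genes summed to 1144, 525 and 728 TPM for wild type, and 337, 416 and 524 TPM for knockout. The groups were barely apart, wild type 2 and knockout 3 being nearly equal, and wild type 1 stood highest. Most of this came from Solyc09g009020, at 1011, 451 and 608 TPM for wild type, against 276, 361 and 456 TPM for knockout. Wild type 2 lay just below knockout 3, so the groups overlapped (log2 fold change −0.87, SE 0.36, 95% interval −1.70 to −0.031, limma adjusted p = 0.270). Over all alternative settings its log2 fold change lay between −1.13 and −0.37, and it was −0.37 without both seed-rich libraries. This gene was highest in wild type 1 and lowest in knockout 1, both of them seed-rich, and the part of seed tissue was not tested. Solyc03g114500 stood at 73.4, 29.1 and 61.3 TPM for wild type, against 15.2, 23.6 and 17.1 TPM for knockout, without overlap (log2 fold change −1.42, SE 0.38, 95% interval −2.33 to −0.52, limma adjusted p = 0.140). The other 2 tested genes, Solyc06g076650 and Solyc10g085550, had log2 fold changes of −0.60 and −0.14, and the first did not overlap. The gene described as enolase-phosphatase E1, an enzyme of methionine salvage and no enolase, had a log2 fold change of 0.80 (limma adjusted p = 0.371). Its groups overlapped, though not with median-ratio scaling.

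Pyruvate kinase, the last step and the second to form ATP, was described for 10 genes, all tested. Of these, 8 had a lower and 2 a higher mean in the knockout, where 56.5% and 43.5% of all genes did. With median-ratio scaling, 2 of the 8 changed sign. Without overlap 3 stood lower and 0 higher, against 16.1% and 8.26% of all genes. The sum was 559 ± 118 TPM over the wild-type libraries, and 497 ± 83.1 TPM over the knockout libraries (SD, n = 3), with overlapping groups. The most abundant, Solyc09g082970, stood at 139.5, 99.2 and 149.9 TPM for wild type, against 216, 191 and 99.8 TPM for knockout, where knockout 3 was almost as low as wild type 2 (log2 fold change 0.33, SE 0.34, limma adjusted p = 0.685). Its share of pyruvate kinase transcripts was 22.4%, 23.5% and 23.7% for wild type, and 41.4%, 33.9% and 24.7% for knockout, so the shares did not overlap although the levels did. Solyc01g049650 stood at 114, 63.4 and 84.4 TPM for wild type, against 42.4, 58.1 and 30.3 TPM for knockout. All wild-type libraries lay above the knockout, wild type 2 only just (log2 fold change −0.99, SE 0.33, 95% interval −1.76 to −0.22, limma adjusted p = 0.190). Solyc01g106780 stood at 23.9, 20.5 and 42.5 TPM for wild type, against 13.8, 15.1 and 10.6 TPM for knockout, also without overlap and with wild type 3 highest (log2 fold change −1.03, SE 0.33, 95% interval −1.81 to −0.24, limma adjusted p = 0.186). Solyc08g077180, chosen after its values were seen, was the third gene without overlap, with 14.6 to 49.1 TPM across wild-type libraries and 9.31 to 12.4 TPM across the knockout (log2 fold change −1.28, SE 0.43, limma adjusted p = 0.195), and it overlapped with median-ratio scaling.

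Pyruvate decarboxylase varied more between libraries than between genotypes. Its 4 genes summed to 228, 100.4 and 133 TPM for wild type, and 83.3, 129.9 and 277 TPM for knockout. Knockout 1 was lowest and knockout 3 highest of all 6 libraries, and wild type 1 stood above the other wild-type libraries. Solyc10g076510 stood at 158, 69.5 and 106 TPM for wild type, against 44.3, 90.1 and 171 TPM for knockout (log2 fold change −0.25, SE 0.52, 95% interval −1.47 to 0.98, limma adjusted p = 0.855). Solyc02g077240 stood at 70.2, 30.5 and 26.6 TPM for wild type, against 38.7, 37.7 and 106 TPM for knockout (log2 fold change 0.47, SE 0.52, 95% interval −0.75 to 1.69, limma adjusted p = 0.704). Both overlapped, and the sign of each changed when single libraries were left out. Solyc09g005110 reached 1 TPM in knockout 2 alone, and Solyc06g082130 was listed at 0 throughout.

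In all, 15 of the 81 members did not pass the filter. Of these, 7 were listed at 0 in every library, and 12, those included, stayed below 1 TPM throughout. The highest value of any of the 15 was 3.05 TPM. Of the 66 that passed, 13 only share an enzyme's name.

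Enzymes around glycolysis were read from 121 further genes chosen by description, of which 84 were tested. Limma called 0 higher and 0 lower, and 11 stood higher and 18 lower when limma p-values under 0.05 were counted without adjustment, where all genes gave 6.24% and 11.3%. Their median log2 fold change was −0.21, beside −0.087 for all genes. Their smallest limma adjusted p was 0.0665, for a gene that passed the filter only through its knockout libraries. Fructose-1,6-bisphosphatase, which runs against phosphofructokinase in gluconeogenesis and the Calvin cycle, had a higher mean in all 5 tested genes, 3 of them without overlap, where 43.5% of all genes had a higher mean and 8.26% were higher without overlap. The clearest, Solyc04g071340, stood at 30.5, 22.6 and 27.02 TPM for wild type, against 95.6, 59.0 and 76.6 TPM for knockout (log2 fold change 1.48, SE 0.26, limma adjusted p = 0.0816). Pyrophosphate-fructose 6-phosphate phosphotransferase, which plants use beside the ATP-dependent enzyme, had a lower mean in all 4 tested genes, 1 of them without overlap, where 56.5% of all genes had a lower mean and 16.1% were lower without overlap. This was the alpha subunit gene Solyc12g095760, at 94.99, 44.1 and 80.2 TPM for wild type, against 37.5, 36.3 and 34.7 TPM for knockout (log2 fold change −0.93, SE 0.31, limma adjusted p = 0.196).

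Hexokinase and fructokinase feed hexoses into the pathway. Of 10 tested genes taken by these names alone, 8 had a lower mean, 3 of them without overlap, and 7 had a lower mean with median-ratio scaling. Among the 8 were Fructokinase-like protein 1 (Solyc09g011850), lower without overlap, and Fructokinase-like protein 2 (Solyc05g012100). Whether either acts on hexoses is not stated in its description. The shares of all genes were again 56.5% for a lower mean and 16.1% for lower without overlap. The gene described as plastidic hexokinase, Solyc04g081400, stood at 21.9 ± 8.19 TPM over the wild-type libraries, and 16 ± 1.29 TPM over the knockout libraries (SD, n = 3), with overlapping groups. Genes of the pyruvate dehydrogenase complex and its kinase, which pass pyruvate on to acetyl-CoA, had a lower mean in 13 of 14, beside the same 56.5% of all genes, and in 12 with median-ratio scaling. The acetyltransferase gene Solyc05g009530 stood at 24.8, 29.6 and 48.2 TPM for wild type, against 9.33, 10.2 and 11.5 TPM for knockout (log2 fold change −1.58, SE 0.31, limma adjusted p = 0.0904). Of 4 tested sugar phosphate translocator genes, 1 had a higher and 3 a lower mean, where 43.5% and 56.5% of all genes did. The higher one was the triose phosphate translocator gene Solyc10g008980, whose product exports trioses from plastids. It stood at 121, 78.3 and 112 TPM for wild type, against 401, 224 and 154 TPM for knockout (log2 fold change 1.23, SE 0.38, limma adjusted p = 0.170). A transketolase gene of the pentose phosphate pathway and Calvin cycle, Solyc10g018300, stood at 32.97, 14.8 and 28.4 TPM for wild type, against 144, 96.8 and 98.97 TPM for knockout, with wild type 1 above the other wild-type libraries (log2 fold change 2.16, SE 0.35, limma adjusted p = 0.0806). The other tested transketolase gene, Solyc05g050970, overlapped (log2 fold change 0.26, SE 0.52, limma adjusted p = 0.846). Alcohol dehydrogenase follows pyruvate decarboxylase. The 15 tested genes were taken by that name alone and include an allyl alcohol dehydrogenase-like protein and a superfamily entry. Of these genes 7 were higher and 8 lower in mean, where 43.5% and 56.5% of all genes were. Without overlap 1 stood higher and 3 lower, against 8.26% and 16.1% of all genes. The abundant Solyc06g059740 stood at 505, 163 and 121 TPM for wild type, against 233, 868 and 1115 TPM for knockout, with overlapping groups. The allyl alcohol dehydrogenase-like gene Solyc08g077280 was lower without overlap, at 120, 168 and 122 TPM for wild type, against 87.7, 66.3 and 100 TPM for knockout (log2 fold change −0.69, SE 0.26, limma adjusted p = 0.230). One described as alcohol dehydrogenase-like 1, Solyc04g074530, stood at 0.05, 0.14 and 0.22 TPM for wild type, against 12.2, 11.5 and 4.18 TPM for knockout and had the smallest adjusted p of these 84 genes (limma adjusted p = 0.0665). It reached 1 TPM in the knockout libraries alone, so it passed the filter only through the genotype where it was high. Its p-value is therefore no independent support for a difference. The genes named from these lists were chosen after their values were seen, and the lists were not tested as lists.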

How the data were processed

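Total RNA had been extracted with TRIzol, per the labels' protocols. The authors deposited 1 table of 40229 genes whose header states no unit. As deposited by the authors, its values sum to just under 1e+06 per library and were taken as TPM, in which abundance is scaled for transcript length and library total. TPM keeps no depth, so the depth of the libraries is unknown and counting error could not be given. Tools named, per the submitters' processing notes, are Cufflinks, StringTie, HISAT2 and TopHat2; the genome build is not given in the sources used here. Columns were assigned to a genotype by name only.

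The 18368 genes that reached 1 TPM in 3 or more libraries were tested. After a log2(TPM + 1) transformation, genotypes were compared by limma 3.58.1 (R 4.3.3) with trended variances, and p-values were adjusted by Benjamini-Hochberg over all these genes; fold changes on this scale understate changes of low genes. Named genes were all tested GAPDH genes and, for each other step, the most abundant gene and the 2 with the lowest p. Members, lists and alternatives were chosen with earlier results of these data known. Lipid-transfer proteins were left out of the seed list after its genes were seen. The alternatives were median-ratio scaling, no filter, a filter of 5 TPM, a pseudocount of 0.1, robust moderation, and leaving out single libraries or both seed-rich ones. Count-based tests did not apply, and gene sequences and coordinates were not used here. Plots were made in Python 3.11.15 (matplotlib 3.10.9).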

Additional observations from a re-analysis of the deposited data

How the results depend on the processing

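Limma called 0 members under each of the 12 alternatives, and the smallest adjusted p of a member lay between 0.0922 and 0.368. At an unadjusted p under 0.05, members standing higher numbered 9, and 14 with median-ratio scaling; members standing lower numbered 13, and 5 without both seed-rich libraries, when 9 of the 22 genes in either direction were shared. Leaving out single libraries gave 7 to 12 higher and 8 to 12 lower, the lower count being 8 without wild type 1 or wild type 3. The share of all genes at this threshold, in either direction, moved too. It was 17.5% in the main fit, 18.8% with median-ratio scaling and 8.85% without both seed-rich libraries. With single libraries left out it ran from 11.2% to 19.5%. The members' median log2 fold change was −0.073; it was 0.038 with median-ratio scaling, 0.14 without both seed-rich libraries, and −0.16 to 0.14 with single libraries left out, so its sign is not settled. Over the whole table limma called 8 genes higher and 9 lower, 14 and 13 with median-ratio scaling, 0 and 0 with no filter (3699 at an unadjusted p under 0.05) or without both seed-rich libraries (1626), and 0 to 16 higher and 0 to 7 lower with single libraries left out. Of the 32 named genes, 24 kept the sign of their fold change under all alternatives. Log2 fold changes that changed sign when single libraries were left out were Solyc04g076090 −0.60 to 0.088, Solyc11g010450 −0.0088 to 0.32, Solyc06g071920 −0.71 to 0.013, Solyc03g111010 −0.14 to 0.33, Solyc05g014480 −0.21 to 0.37, Solyc10g076510 −0.72 to 0.24 and Solyc02g077240 −0.012 to 0.89. Those that changed sign without both seed-rich libraries were Solyc04g076090 0.21, Solyc11g010450 −0.079, Solyc06g071920 0.14, Solyc05g014480 −0.22, Solyc07g066600 0.17 and Solyc10g076510 0.53. The cause of these changes was not tested. No paired analysis was possible because the columns carry no number that links a wild-type sample to a knockout sample. The depth of the libraries is unknown.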
